A study of Mus musculus with 6 samples.

Results

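The genes described here are 37 mouse genes of fatty acid uptake, activation, carnitine transfer and mitochondrial beta-oxidation. They were chosen by name, for their known roles, from the 54532 genes of a count table, with earlier results of these data known. Each of the 37 symbols matched 1 Ensembl gene of GENCODE M21. RNA was sequenced from the quadriceps, a thigh muscle, of pups taken at postnatal day 10 from mice on chow. The control group was Pcyt2 flox/flox (n = 3 libraries) and the other group was Myf5Cre-Pcyt2 flox/flox (n = 3 libraries), so the floxed Pcyt2 allele was carried by both. Cre under Myf5 acts in the precursors of skeletal muscle, and the Myf5 lineage also gives rise to part of the brown fat. No label gives the controls a Cre, so loss of Pcyt2 and the presence of Cre cannot be told apart. Nothing says that the pups came from separate litters, and p-values therefore measure the spread between these 6 libraries.

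Muscle burns fatty acids in its mitochondria. Fatty acids enter the fibre with the help of membrane and cytosolic carriers and are activated to acyl-CoA. The acyl group is passed to carnitine for entry into the matrix and is then shortened in repeated rounds of dehydrogenation, hydration, dehydrogenation and thiolysis. Malonyl-CoA holds back the entry step, electrons leave through the electron transfer flavoprotein, and the milk diet of suckling pups is rich in fat.

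Library totals lay between 17775898 and 20446920 counts. Replicate 3 of each group was male by its Xist and Y-linked counts and the others were female. Pcyt2, the targeted gene, was read 353, 277 and 277 times in the controls, against 280, 328 and 272 times in the Myf5Cre-Pcyt2 libraries (log2 fold change -0.28, SE 0.11, adjusted p = 0.0944 by edgeR's quasi-likelihood test), and counts per gene do not show whether the remaining transcript is intact. The muscle fibre markers Ckm, Acta1, Myh4, Mylpf, Tnnt3, Myh2 and Myh1 summed to 150000 to 203000 CPM in control and 95100 to 125000 CPM in Myf5Cre-Pcyt2, and 3 of the 7 fell (Ckm, Mylpf and Tnnt3). Levels are CPM, counts scaled to a common library size, after TMM scaling, a correction for differences in the make-up of the libraries. Markers of white fat (Adipoq, Plin1, Cidec, Lep, Retn and Cfd) summed to 35.8 to 340 CPM in control and 74.4 to 108 CPM in Myf5Cre-Pcyt2. Those of brown fat (Ucp1, Cidea and Elovl3) summed to 4.41 to 120 CPM and 14.4 to 15.7 CPM. The highest fat marker levels were those of control replicate 1, with 102 CPM of Plin1 and 75.5 CPM of Ucp1, against 7.95 and 1.80 CPM in control replicate 2. Each result below that rests on control replicate 1 is given with its value without that library.

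Of the 37 genes, all of which passed the filter on low counts, 12 fell in Myf5Cre-Pcyt2, 1 rose and 24 did not pass the threshold of 0.05 on the adjusted p. Over all 14715 tested genes 18.6% passed, with 9.59% lower and 9.02% higher, against lower and higher shares of 32.4% and 2.7% of these 37. As the 37 were chosen with earlier results of these data known, the contrast is not an independent test. Those that fell were the carnitine transporter gene Slc22a5, the acyl-CoA synthetase gene Acsl4, the carnitine acetyltransferase gene Crat, the dehydrogenase genes Acadvl, Acads, Acad9, Acad10 and Acad11, and Echs1, Eci1, Etfb and Acot13. Cpt1a, which encodes the liver form of carnitine palmitoyltransferase 1, was the single gene that rose. The median log2 fold change of the 37 was -0.19, against 0.00 over all tested genes, and 32 of the 37 values were negative, against 50.2% of all tested genes. The ranges of the groups did not overlap for 15 genes that were lower and 3 that were higher in Myf5Cre-Pcyt2, where 39.0% of all tested genes lay apart, 19.2% and 19.9% in these directions.

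These counts depend on the scaling. TMM factors were 0.853 to 0.972 in control and 1.03 to 1.12 in Myf5Cre-Pcyt2, and with library size alone the median of all tested genes moved to 0.21. On that scale 2 of the 37 genes fell (Slc22a5 and Acad11), 2 rose (Cpt1a and Acot2) and the median was 0.02, with 3.39% of all tested genes lower and 21.9% higher. The sign of 15 of the 37 values turned. As a share of all counts, without any scaling, the 37 genes took 0.678, 0.612 and 0.719% of the control libraries and 0.665, 0.669 and 0.734% of the Myf5Cre-Pcyt2 libraries, and the groups overlapped. After TMM scaling their sum was 7015, 7178 and 7408 CPM in control and 6489, 5974 and 6791 CPM in Myf5Cre-Pcyt2, where they did not. The libraries mattered too. Without control replicates 1, 2 and 3 in turn, 10, 8 and 10 of the 37 genes fell, where 9.67, 4.66 and 7.47% of all tested genes fell. On leaving out Myf5Cre-Pcyt2 replicates 1, 2 and 3 in turn, 10, 1 and 7 fell, where 8.59, 2.85 and 4.31% of all tested genes did. The single gene that fell without Myf5Cre-Pcyt2 replicate 2, Acad11, is a share near that of all tested genes. With sex as a covariate 10 of the 37 fell, where 7.76% of all tested genes did, and 1 rose.

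**Figure D1:**
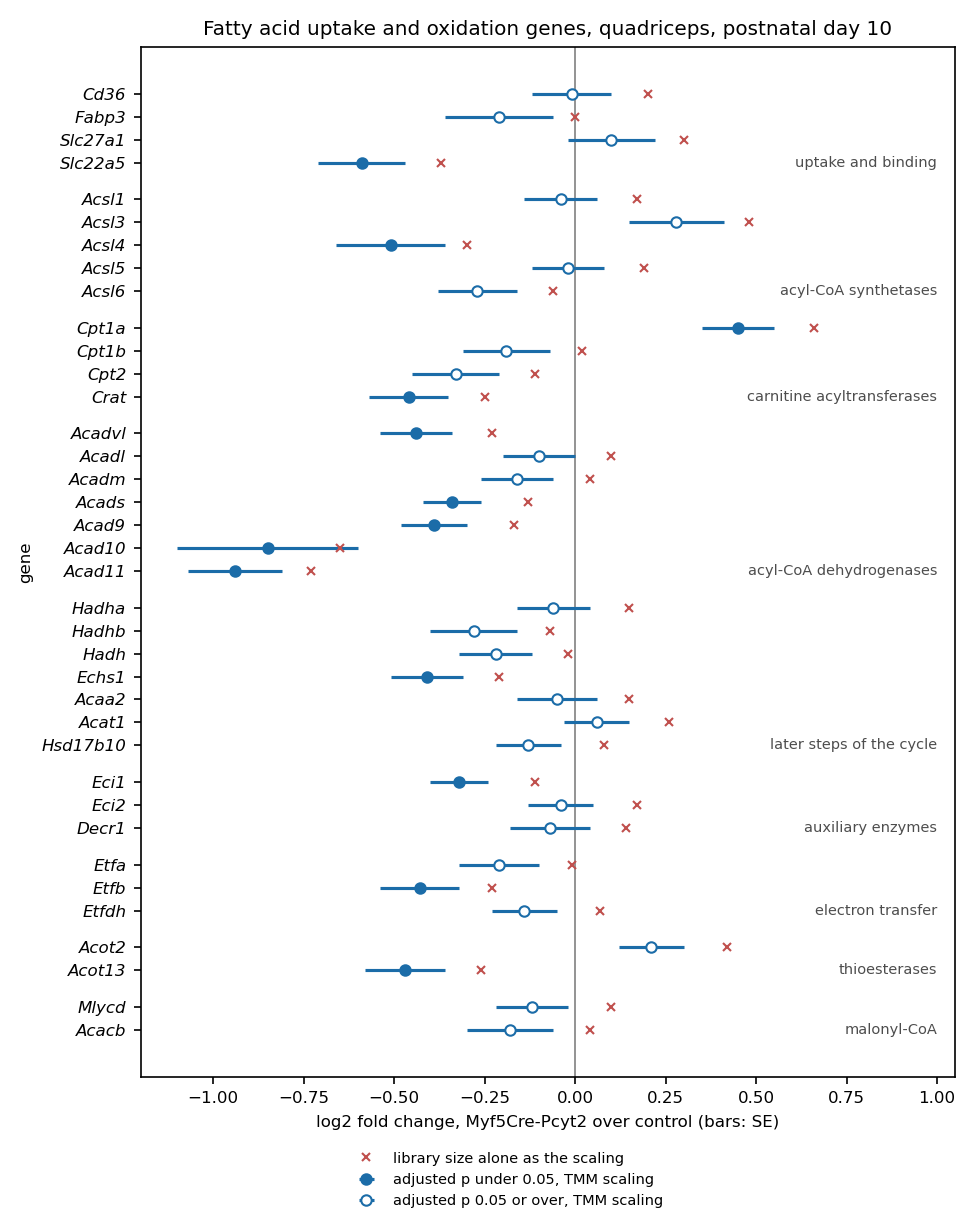
Log2 fold change of each of the 37 genes (Myf5Cre-Pcyt2 over control, n = 3 libraries each), by role. Circles are values with TMM scaling and bars their standard errors, filled where the adjusted p is under 0.05 (12 lower, 1 higher); crosses are values with library size alone, which lie to the right of every circle.

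Of the 4 genes of uptake and binding, Slc22a5 fell and 3 did not pass. Slc22a5 encodes the sodium-dependent transporter that brings carnitine into the cell. It had 14.7, 17.3 and 13.8 CPM in control and 10.3, 9.26 and 10.9 CPM in Myf5Cre-Pcyt2. All Myf5Cre-Pcyt2 libraries lay below all controls, and the log2 fold change was -0.59 (SE 0.12, adjusted p = 0.0105), a change of -33.4%. With library size alone the value was -0.37 (adjusted p = 0.0477), and without Myf5Cre-Pcyt2 replicate 2 the adjusted p was 0.0533, the highest of 14 alternatives that reached down to 0.000148. In the annotation, 26.1% of the 50-base words of its transcripts also occur in Slc22a21, a neighbouring family member with 8 to 36 counts per library, so part of its reads cannot be assigned with certainty.

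Cd36, the fatty acid translocase of the fibre and vessel membrane, had 563, 637 and 679 CPM in control and 641, 564 and 658 CPM in Myf5Cre-Pcyt2 (log2 fold change -0.01, SE 0.11). The groups covered nearly the same range. Fabp3, the heart-type fatty acid-binding protein gene of muscle cytosol, had 194, 248 and 257 CPM against 180, 178 and 246 CPM (-0.21, SE 0.15), again with overlapping groups. Slc27a1, a fatty acid transport protein gene, had a value of 0.10 (SE 0.12). Of Fabp3's 50-base words 37.3% occur in other genes, most of them in the pseudogene Fabp3-ps1, which itself held 8 to 15 counts per library. Endothelial markers, whose cells also carry Cd36, summed to 683 to 856 CPM in control and 717 to 811 CPM in Myf5Cre-Pcyt2, and 1 of the 6 (Emcn) fell.

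Acyl-CoA synthetases join free fatty acids to coenzyme A, and of the 5 long-chain synthetase genes Acsl4 fell and 4 did not pass. Acsl4, whose enzyme prefers arachidonate and other polyunsaturated acids, had 90.7, 107 and 78.0 CPM in control and 76.0, 51.4 and 66.6 CPM in Myf5Cre-Pcyt2. The groups came close without overlapping, and the log2 fold change was -0.51 (SE 0.15, adjusted p = 0.0378). The call was lost on leaving out control replicate 1 (0.0558) or 2 (0.133) or Myf5Cre-Pcyt2 replicate 2 (0.138) or 3 (0.0916), with sex as a covariate (0.0524) and with library size alone (0.0944), over 14 alternatives from 2.97e-05 to 0.138. Acsl1, the main synthetase of oxidative tissues, had 556, 550 and 539 CPM in control and 552, 476 and 577 CPM in Myf5Cre-Pcyt2 (-0.04, SE 0.10). Acsl3, linked to lipid droplet growth, was the member with the highest value among those that did not pass, at 0.28 (SE 0.13, adjusted p = 0.152), and its groups did not overlap. Acsl5 and Acsl6 had values of -0.02 and -0.27.

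Of the 4 carnitine acyltransferase genes Cpt1a rose, Crat fell and 2 did not pass. Cpt1a had 48.2, 44.6 and 38.1 CPM in control and 55.9, 62.4 and 60.5 CPM in Myf5Cre-Pcyt2. All Myf5Cre-Pcyt2 libraries were higher than all controls, and the log2 fold change was 0.45 (SE 0.10, adjusted p = 0.0143), or 0.66 with library size alone. It did not pass without Myf5Cre-Pcyt2 replicate 2 (0.0673) or 3 (0.0536), over 14 alternatives from 0.00043 to 0.0673. Crat, which moves acetyl groups between coenzyme A and carnitine in the matrix, had 521, 634 and 552 CPM in control and 409, 384 and 447 CPM in Myf5Cre-Pcyt2. The groups lay apart, and Crat fell with -0.46 (SE 0.11, adjusted p = 0.0176). Leaving out control replicate 2 (0.0525) or Myf5Cre-Pcyt2 replicate 2 (0.0802), or scaling by library size alone (0.0740), ended this call, over alternatives from 0.000212 to 0.0802. Cpt2, the inner membrane transferase that returns the acyl group to coenzyme A, had a value of -0.33 (SE 0.12, adjusted p = 0.0671) with groups that did not overlap, and it passed with DESeq2 (0.0407), without a filter on low counts (0.0145) and without control replicate 3 (0.0271), over a range of 0.0145 to 0.459.

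Cpt1b, the muscle form of the entry enzyme, had 18.1, 16.9 and 15.2 CPM in control and 13.6, 13.4 and 16.9 CPM in Myf5Cre-Pcyt2, with overlapping groups (-0.19, SE 0.12). These counts need care: 2744 of its 3372 exon bases (81.4%) are also exons of Gm44502, a read-through model on the same strand, which had 0 counts in every library. The sources used here do not give how reads in shared bases were counted. Per kilobase of all exon bases, Cpt1a made up 54.1, 53.8 and 52.5% of the sum of Cpt1a and Cpt1b in control and 64.5, 67.2 and 61.2% in Myf5Cre-Pcyt2, a difference of 10.8 percentage points (exact permutation test, two-sided, p = 0.1, the smallest p that 3 against 3 libraries allow). Divided by only those bases that no other gene shares (7642 for Cpt1a, 628 for Cpt1b), an alternative added after the annotation was seen, the shares were 18, 17.8 and 17.1% and 25.3, 27.6 and 22.7%. The share was higher in every Myf5Cre-Pcyt2 library by either measure. Because Gm44502 had 0 counts, reads in the shared bases were not counted for both genes. If those reads were left out, the Cpt1b counts come from its 628 unshared bases. In that case the second measure applies, by which Cpt1b has the higher level in every library.

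The promoter windows of the genes that passed with both scalings, Slc22a5, Acad11 and Cpt1a, are shown first below, followed by that of Acad10, which fell with TMM and holds an NRF1 site, and that of Hadha, which shares its window with Hadhb. The sequences are those of RefSeq on GRCm38.p6, 5′ to 3′ on the strand of the gene, from 250 bases before the start site to 50 bases from it. Capitals mark the Sp1 box GGGCGG, or CCGCCC on the other strand, and, in the Acad10 window, the palindromic NRF1 site.
Slc22a5 promoter, chr11:53891654-53891953, minus strand: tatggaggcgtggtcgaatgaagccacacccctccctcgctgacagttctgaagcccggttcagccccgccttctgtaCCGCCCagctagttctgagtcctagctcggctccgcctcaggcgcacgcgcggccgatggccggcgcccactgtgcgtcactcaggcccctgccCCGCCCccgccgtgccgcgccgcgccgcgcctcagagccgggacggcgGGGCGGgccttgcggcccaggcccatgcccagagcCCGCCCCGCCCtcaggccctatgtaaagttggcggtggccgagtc
Acad11 promoter, chr9:104063474-104063773, plus strand: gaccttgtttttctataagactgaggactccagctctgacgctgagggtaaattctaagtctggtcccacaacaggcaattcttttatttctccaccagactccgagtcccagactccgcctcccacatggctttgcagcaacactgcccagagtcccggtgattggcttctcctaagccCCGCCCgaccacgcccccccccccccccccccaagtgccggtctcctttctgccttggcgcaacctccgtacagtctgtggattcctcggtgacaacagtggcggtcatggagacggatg
Cpt1a promoter, chr19:3323051-3323350, plus strand: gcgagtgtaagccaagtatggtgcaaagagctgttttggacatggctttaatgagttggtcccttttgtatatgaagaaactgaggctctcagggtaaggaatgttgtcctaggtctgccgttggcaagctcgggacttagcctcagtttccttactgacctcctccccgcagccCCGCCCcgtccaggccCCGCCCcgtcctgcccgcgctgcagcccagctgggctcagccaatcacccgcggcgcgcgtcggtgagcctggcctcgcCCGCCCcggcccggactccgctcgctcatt
Acad10 promoter, chr5:121660461-121660760, minus strand: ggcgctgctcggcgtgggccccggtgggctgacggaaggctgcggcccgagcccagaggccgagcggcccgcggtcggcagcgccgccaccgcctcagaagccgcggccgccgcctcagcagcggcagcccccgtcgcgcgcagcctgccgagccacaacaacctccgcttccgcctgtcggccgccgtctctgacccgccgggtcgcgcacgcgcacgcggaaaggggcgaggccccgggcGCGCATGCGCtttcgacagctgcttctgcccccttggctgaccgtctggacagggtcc
Hadha promoter, chr5:30154931-30155230, minus strand: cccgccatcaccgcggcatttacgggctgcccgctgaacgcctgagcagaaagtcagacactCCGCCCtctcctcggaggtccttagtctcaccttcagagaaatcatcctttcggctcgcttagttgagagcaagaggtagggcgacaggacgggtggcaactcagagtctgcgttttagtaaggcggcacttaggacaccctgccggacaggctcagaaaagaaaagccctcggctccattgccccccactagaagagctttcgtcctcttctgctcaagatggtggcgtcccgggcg

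A promoter entry was found for 30 of the 37 genes, in 35 windows. The Sp1 box was present in 24 of these 35 windows and in 35.7% of all 32851 windows. The Slc22a5 window held 5 Sp1 boxes and that of Cpt1a 3, while those of Acad11 and Hadha held 1 each. The NRF1 site was present in the windows of Acad10 and Etfdh and in 0.971% of all windows, and the Acad10 site begins 8 bases before the start site. TCAAGGTCA, the site of the estrogen-related receptors, was present in 1 window of Acsl6 and in 0.423% of all windows. The DR1 repeat that PPAR receptors bind was present in 0 of the 35 windows and in 0.0396% of all, and the core of the MEF2 site in 0 of the 35 and 3.69% of all. Each motif was searched on both strands, and a match is a match of letters alone. The Hadha and Hadhb windows face away from each other on chromosome 5 and overlap by 228 bases.

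Acyl-CoA dehydrogenases take the electrons in the opening step of each round. Here 5 of the 7 genes fell, none rose and all 7 values were negative (median -0.39), where 9.59% of all tested genes fell. With library size alone the median of the 7 was -0.17, and 5 values were negative and 2 positive (Acadl 0.10 and Acadm 0.04). Acad11 was the single gene of them to pass, where 3.39% of all tested genes fell. Acad11, a less studied member of the family, fell most of all 37 genes. It had 51.0, 52.5 and 42.2 CPM in control and 28.6, 20.4 and 26.8 CPM in Myf5Cre-Pcyt2. The highest Myf5Cre-Pcyt2 library lay well under the lowest control, and the log2 fold change was -0.94 (SE 0.13, adjusted p = 0.00288). It was the single gene of the 37 that passed in all 14 alternatives (adjusted p from 2.01e-15 to 0.014), and its values ran from -1.04 to -0.73. Acad10, a close relative, had only 41 to 98 counts per library, or 5.19, 2.84 and 3.24 CPM in control and 2.19, 1.79 and 2.31 CPM in Myf5Cre-Pcyt2. Its control replicate 1 stood above the other controls, and the groups did not overlap (-0.85, SE 0.25, adjusted p = 0.0406). Without control replicate 1 the value was -0.54 and did not pass (0.124). The call was also lost without control replicate 3 (0.0503), without each Myf5Cre-Pcyt2 replicate (0.0723, 0.151 and 0.0850), with sex as a covariate (0.0588) and with library size alone (0.105), over a range of 0.00261 to 0.151. The neighbouring family member Acad12, which holds 16.8% of the 50-base words of Acad10, fell as well (-0.76, SE 0.14, adjusted p = 0.00727). Acad12 is not among the 37 genes and was named after its values were seen.

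The dehydrogenases of the classical chain-length series differed. Acadvl, which takes very long acyl chains at the inner membrane, had 450, 475 and 445 CPM in control and 337, 311 and 359 CPM in Myf5Cre-Pcyt2, and it fell with -0.44 (SE 0.10, adjusted p = 0.0124). The lowest control was higher than every Myf5Cre-Pcyt2 library by more than the spread within either group. Acadl, the long-chain enzyme gene, had 589, 574 and 641 CPM against 571, 531 and 579 CPM (-0.10, SE 0.10), and the groups overlapped. Acadm, the medium-chain enzyme gene, had 307, 298 and 336 CPM against 283, 260 and 296 CPM (-0.16, SE 0.10, adjusted p = 0.245), with groups that just lay apart. Acads, the short-chain enzyme gene, had 107, 106 and 107 CPM against 86.0, 81.0 and 85.5 CPM and fell with -0.34 (SE 0.08, adjusted p = 0.0152). The controls of Acads were close to identical, with an SD of 0.593 CPM. Acad9, whose protein also helps to assemble respiratory complex I, had 26.0, 30.9 and 28.5 CPM against 23.0, 20.9 and 21.6 CPM and fell with -0.39 (SE 0.09, adjusted p = 0.0185).

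Acadvl, Acads and Acad9 did not pass when Myf5Cre-Pcyt2 replicate 2 was left out (0.0609, 0.0713 and 0.0856), and with library size alone their adjusted p was 0.0831, 0.318 and 0.214. Acads and Acad9 also missed the threshold without Myf5Cre-Pcyt2 replicate 3 (0.0544 and 0.0713), and Acad9 without control replicate 2 (0.0658). Over 14 alternatives the adjusted p ran from 5.11e-05 to 0.0831 for Acadvl, 0.00282 to 0.318 for Acads and 0.00665 to 0.214 for Acad9. Acadvl shares 1151 of its 2686 exon bases with Dvl2 on the opposite strand, which rose (0.72, SE 0.14, adjusted p = 0.00768). No strand setting is given in these sources, and reads of the shared bases cannot then be told apart.

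**Figure D2:**
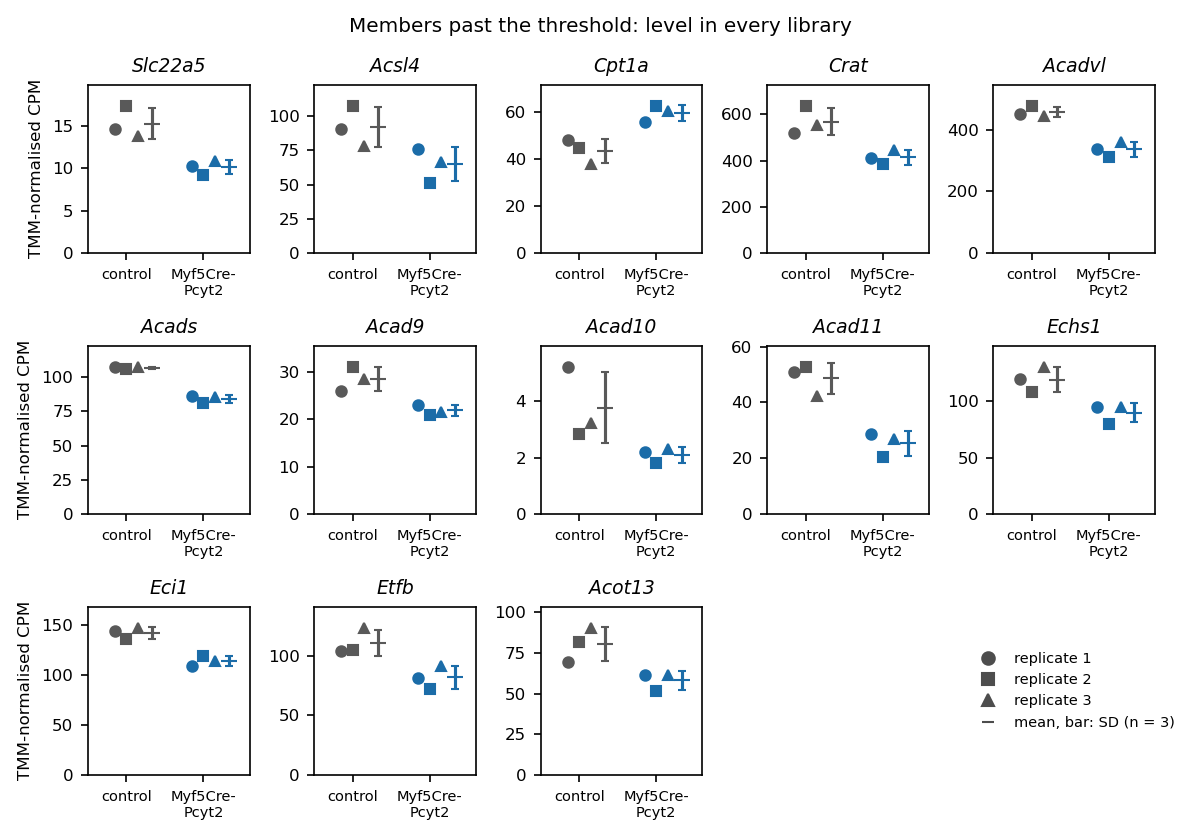
TMM-normalised CPM of the 13 genes past the threshold in every library, from 0; symbols are replicates, and dashes with bars are means with SD (n = 3). The groups do not overlap in any panel, and Cpt1a is the panel in which Myf5Cre-Pcyt2 is higher.

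Among the 7 genes of the later steps of each round, Echs1 fell and 6 did not pass. Echs1, the short-chain enoyl-CoA hydratase gene, had 120, 108 and 130 CPM in control and 94.8, 80.2 and 94.6 CPM in Myf5Cre-Pcyt2. The groups lay apart, and the log2 fold change was -0.41 (SE 0.10, adjusted p = 0.0211). It missed the threshold without Myf5Cre-Pcyt2 replicates 2 (0.0935) and 3 (0.0519) and with library size alone (0.213), over alternatives from 0.00146 to 0.213. Hadha, the alpha subunit of the trifunctional protein that handles long chains, had 616, 655 and 654 CPM in control and 627, 586 and 635 CPM in Myf5Cre-Pcyt2 (-0.06, SE 0.10), with overlapping groups. Hadhb, the beta subunit, had a value of -0.28 (SE 0.12, adjusted p = 0.122) and passed without Myf5Cre-Pcyt2 replicate 3 (-0.43, adjusted p = 0.0420, over a range of 0.0420 to 0.689).

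Per kilobase of exon, Hadha had 73.5 CPM and Hadhb 8.32 CPM in control, although the subunits form 1 complex. Of the 50-base words of Hadhb, 18.1% also occur in its processed pseudogene Gm13910, which had 55 to 78 counts per library, and the treatment of reads with several matches is not given either. Hadh, the hydroxyacyl-CoA dehydrogenase gene for shorter chains, had -0.22 (SE 0.10), the thiolase gene Acaa2 -0.05 (SE 0.11), Acat1, whose thiolase also serves ketone bodies, 0.06 (SE 0.09), and Hsd17b10, whose protein is also part of mitochondrial RNase P, -0.13 (SE 0.09).

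Helper enzymes, electron carriers and thioesterases stood beside these steps. Eci1, the isomerase that lets unsaturated chains enter the cycle, had 144, 136 and 147 CPM in control and 109, 119 and 114 CPM in Myf5Cre-Pcyt2, with groups apart by more than the spread within each (-0.32, SE 0.08, adjusted p = 0.0244). Eci2 and Decr1, which also serve unsaturated chains, had values of -0.04 (SE 0.09) and -0.07 (SE 0.11). Etfb, the beta subunit of the electron transfer flavoprotein, had 104, 105 and 123 CPM against 81.3, 72.5 and 91.8 CPM and fell with -0.43 (SE 0.11, adjusted p = 0.0216). Its partner Etfa had 241, 229 and 287 CPM against 220, 205 and 230 CPM (-0.21, SE 0.11), where the groups met, and Etfdh, which passes the electrons on to ubiquinone, had -0.14 (SE 0.09). Of the 1164 exon bases of Etfb 58.2% are shared with other genes, most of them with the read-through model Gm45233, which had 0 counts in every library.

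Acot13, a thioesterase gene of mitochondria that releases free fatty acids from acyl-CoA, had 69.4, 81.8 and 90 CPM in control and 61.6, 51.3 and 61.6 CPM in Myf5Cre-Pcyt2, and fell with -0.47 (SE 0.11, adjusted p = 0.0186). The matrix thioesterase gene Acot2 went the other way in value, with 18.4, 19.5 and 17.9 CPM against 20.7, 20.3 and 23.4 CPM and groups that did not overlap (0.21, SE 0.09, adjusted p = 0.140), and it passed with library size alone (0.42, adjusted p = 0.0194, over a range of 0.0194 to 0.421). Of the 50-base words of Acot2, 24.5% also occur in its paralog Acot1. Acacb, which makes the malonyl-CoA that inhibits the entry step, and Mlycd, which removes it, had values of -0.18 (SE 0.12) and -0.12 (SE 0.10), with overlapping groups.

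Several of these calls were lost at a similar fold change when a library was left out. The call of Eci1 was lost on leaving out control replicate 3 (0.0519) or any Myf5Cre-Pcyt2 replicate (0.0628, 0.0606 and 0.0889), over alternatives from 0.00581 to 0.474. Etfb missed the threshold without control replicate 3 (0.0521) and without Myf5Cre-Pcyt2 replicates 1 (0.0507) and 2 (0.0960), over 0.000686 to 0.189. Acot13 did so without control replicate 2 (0.0578) and Myf5Cre-Pcyt2 replicate 2 (0.0878), over 0.000185 to 0.118. With each library left out in turn, the log2 fold change of Eci1 stayed between -0.35 and -0.29, that of Etfb between -0.53 and -0.35 and that of Acot13 between -0.56 and -0.38. The highest of these adjusted p values, 0.474, 0.189 and 0.118, came from library size alone.

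**Figure D3:**
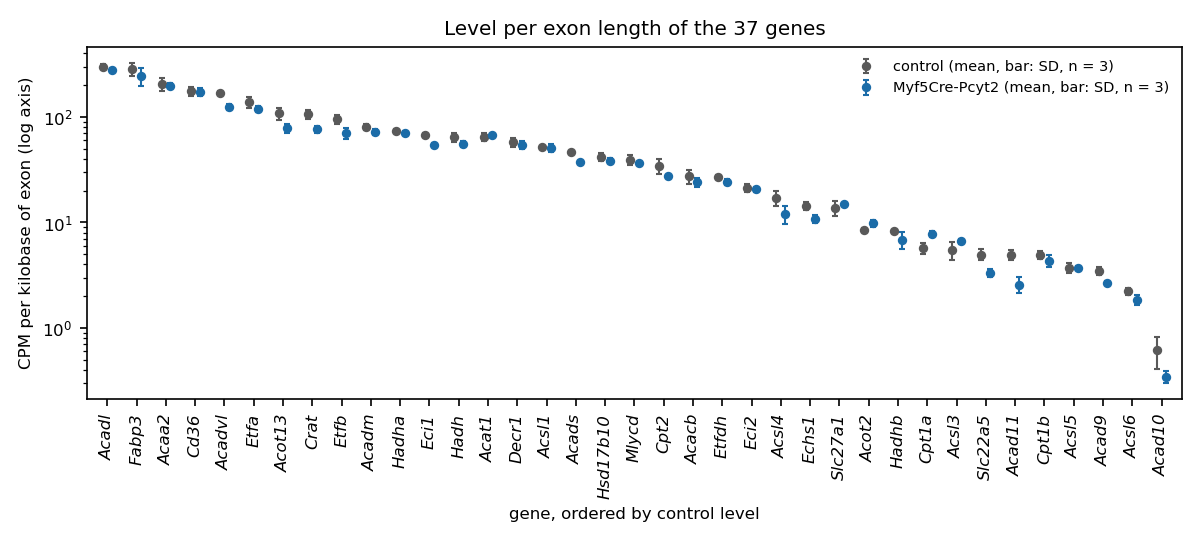
Mean level of each gene per kilobase of exon, on a log axis, with SD bars (n = 3 libraries per group), ordered by the control level. The controls run from 300 CPM per kilobase for Acadl to 0.619 for Acad10.

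Per kilobase of exon, levels in control spanned a wide range. Acadl was at 300 ± 17.7 CPM per kilobase (SD, n = 3) and Fabp3 at 283 ± 41.2, which did not differ beyond their spread. Acaa2, Cd36 and Acadvl followed with 205 ± 27.3, 175 ± 16.5 and 170 ± 5.92, and again overlapped. Acad10 was lowest at 0.619 ± 0.207, below Acsl6 at 2.22 ± 0.188. Exon length here is the union of all annotated exons, which overstates the length of the transcript in use where a gene has many annotated forms. For Cpt1b and Etfb it includes the bases shared with read-through models that had 0 counts. Their levels per kilobase are too low if reads in those bases were left out. Genes that passed were found from Acadvl down to Acad10, while Acadl, Fabp3, Acaa2 and Cd36, the genes above Acadvl, did not pass.

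Beyond these genes, 6 related lists were read in the same fit, where 9.59% of all tested genes fell and 9.02% rose. Of 17 tested peroxisomal oxidation genes 8 fell and 1 rose (median -0.37). Phyh, which starts the alpha-oxidation of branched chains, had 134, 142 and 129 CPM in control and 67.4, 55.9 and 79.5 CPM in Myf5Cre-Pcyt2 and fell with -1.0 (SE 0.12, adjusted p = 0.0017). Abcd2, a peroxisomal acyl-CoA transporter gene, and Amacr, the racemase gene for branched chains, fell with -0.69 (SE 0.13) and -0.57 (SE 0.10). Acot4, at 0.348 to 1.71 CPM, rose with 1.10 (SE 0.33, adjusted p = 0.0438). It passed in 7 of 14 alternatives (0.0121 to 0.115) and was lost without each Myf5Cre-Pcyt2 replicate (0.109, 0.103 and 0.0949) and without control replicates 2 (0.0908) and 3 (0.115). Acot4 was also lost with DESeq2. Phyh, Abcd2 and Amacr passed in all 14. With library size alone 3 genes of the list fell and 1 rose, where 3.39% of all tested genes fell and 21.9% rose.

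From the list of ketone body use, Oxct1, which activates acetoacetate for use as fuel outside the liver, had 119, 174 and 137 CPM in control and 66.7, 62.0 and 74.7 CPM in Myf5Cre-Pcyt2. It fell with -1.08 (SE 0.13, adjusted p = 0.00193) and passed in all 14 alternatives. Of 24 other genes of fatty acyl and carnitine handling 3 fell and 1 rose (median -0.14), while with library size alone none fell and 4 rose (median 0.07). These counts lie near or under the shares of all tested genes (9.59% lower and 9.02% higher, or 3.39% and 21.9% with library size alone). Acsf3, Got2 and Acadsb fell with -0.42 each, and Cpt1c, the form of the entry enzyme known from brain, rose from 2.59, 2.49 and 2.03 CPM to 3.63, 5.68 and 4.80 CPM (0.99, SE 0.21, adjusted p = 0.0126). None of Acsf3, Got2, Acadsb and Cpt1c passed without Myf5Cre-Pcyt2 replicate 2 (0.0655, 0.0768, 0.1 and 0.0640), and the first 3 were lost with library size alone (0.201, 0.105 and 0.147), the highest values of each. Acsf3 was also lost without Myf5Cre-Pcyt2 replicate 3 (0.0658), Got2 without control replicate 2 (0.0534), and Acadsb without Myf5Cre-Pcyt2 replicate 3 (0.0688) and control replicates 2 (0.0760) and 3 (0.0513). The mitochondrial carnitine carrier gene Slc25a20, named after its values were seen, had -0.25 (SE 0.09, adjusted p = 0.0689).

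Of 14 transcription regulators of oxidation 5 fell (median -0.24), and 1 fell with library size alone, where 9.59% and 3.39% of all tested genes fell. Perm1, a muscle regulator of oxidative genes, had 141, 214 and 181 CPM in control and 104, 92.2 and 112 CPM in Myf5Cre-Pcyt2 and fell with -0.80 (SE 0.14, adjusted p = 0.00575), in all 14 alternatives. The estrogen-related receptor genes Esrra and Esrrg fell with -0.36 (SE 0.08) and -0.42 (SE 0.10), and were lost without Myf5Cre-Pcyt2 replicate 2 (0.0800 and 0.0701) and with library size alone (0.225 and 0.172, the highest of each), and Esrra without control replicate 2 (0.0569). Ppara, the receptor gene that responds to fatty acids, was named after its values were seen and fell with -0.62 (SE 0.20, adjusted p = 0.0498), with groups that overlapped. It passed in 6 of 14 alternatives (0.000528 to 0.180) and was lost without each Myf5Cre-Pcyt2 replicate (0.0844, 0.177 and 0.0889) and without control replicates 1 (0.140) and 3 (0.113). Ppara was also lost with library size alone (0.180), with sex as a covariate and with limma-voom. The coactivator gene Ppargc1a, also named after its values were seen, had -0.02 (SE 0.13). Of 7 PPAR-responsive genes outside oxidation 1 fell and 1 rose (median -0.03): Ucp2 with -0.58 (SE 0.13) and Angptl4 with 0.34 (SE 0.10), which passed in 11 and 9 of 14 alternatives. Among all tested genes 9.59% fell and 9.02% rose, and counts of 1 in 7 genes do not stand apart from this. With library size alone none of the 7 fell and 2 rose, where 3.39% of all tested genes fell and 21.9% rose. Ucp2 was lost on that scale (0.0706), without Myf5Cre-Pcyt2 replicate 3 (0.0657) and without control replicate 2 (0.0504), and Angptl4 without Myf5Cre-Pcyt2 replicates 2 (0.116) and 3 (0.131) and control replicates 1 (0.0558) and 2 (0.119).

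**Figure D4:**
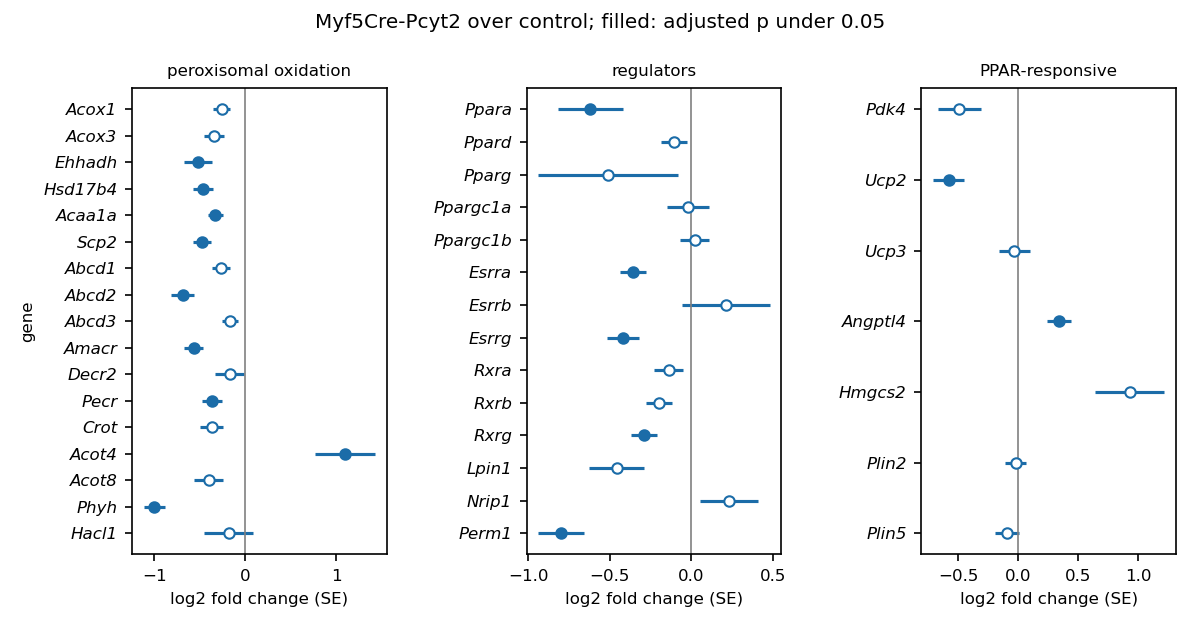
Log2 fold change (Myf5Cre-Pcyt2 over control) with SE of the tested genes of 3 of the related lists, filled where the adjusted p is under 0.05. Among the filled genes of the peroxisomal panel, 8 are lower and 1 (Acot4) is higher. Phyh, Perm1 and Ucp2 are the lowest of their panels.

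For comparison, transcripts of 16 genes of the citrate cycle, the respiratory chain and the outer membrane were read beside the 37. Their levels do not measure the amount of mitochondria. Of the 16 genes 11 fell (4 with library size alone) and 5 did not pass (Sdha, Atp5a1, Atp5b, Vdac1 and Tomm20). Among all tested genes 9.59% fell (3.39% with library size alone). The median of the 16 genes was -0.43 (-0.22 with library size alone), against -0.19 (0.02) for the fatty acid genes. Uqcrc1, Sdhb and Cox5a fell with -0.66 (SE 0.11), -0.57 (SE 0.10) and -0.61 (SE 0.12) and passed in all 14 alternatives. The difference between the lists was not tested. Markers of other fibres and cells were read in the same libraries. The 6 slow-fibre markers did not pass with TMM scaling (median 0.57, lowest adjusted p 0.0595). Their summed levels overlapped, at 648 to 1360 CPM in control and 1100 to 1480 CPM in Myf5Cre-Pcyt2. Of the others, 3 of 4 Schwann cell markers and 1 of 4 fibroblast markers (Pdgfra) rose, where 9.02% of all tested genes did. Macrophage markers summed to 132 to 159 CPM and 152 to 173 CPM, and their lowest adjusted p was 0.0718 (Mrc1). Of 5 genes listed as cardiomyocyte markers 3 were tested and Tnnt2 rose, which by itself does not show such cells. Ryr2 (0.68, SE 0.30, adjusted p = 0.136) and Tnni3 (0.61, SE 0.25, adjusted p = 0.112) did not pass, with groups that did not overlap. Myl7 and Nppa had at most 0.0534 and 0.139 CPM. With library size alone 3 of the 6 slow-fibre markers rose, as did 4 Schwann cell, 3 fibroblast and 2 macrophage markers. On that scale 1 endothelial marker and 1 gene of the cardiomyocyte list rose too, and of the 7 muscle fibre markers 4 fell and 1 rose. Of all tested genes 21.9% rose and 3.39% fell with library size alone. The hepatocyte marker Alb was at most 1.39 CPM except in Myf5Cre-Pcyt2 replicate 1, at 9.93 CPM. The part of these cells in the results above was not tested, and in whole muscle fewer cells of a type and less RNA per cell cannot be told apart.

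**Figure D5:**
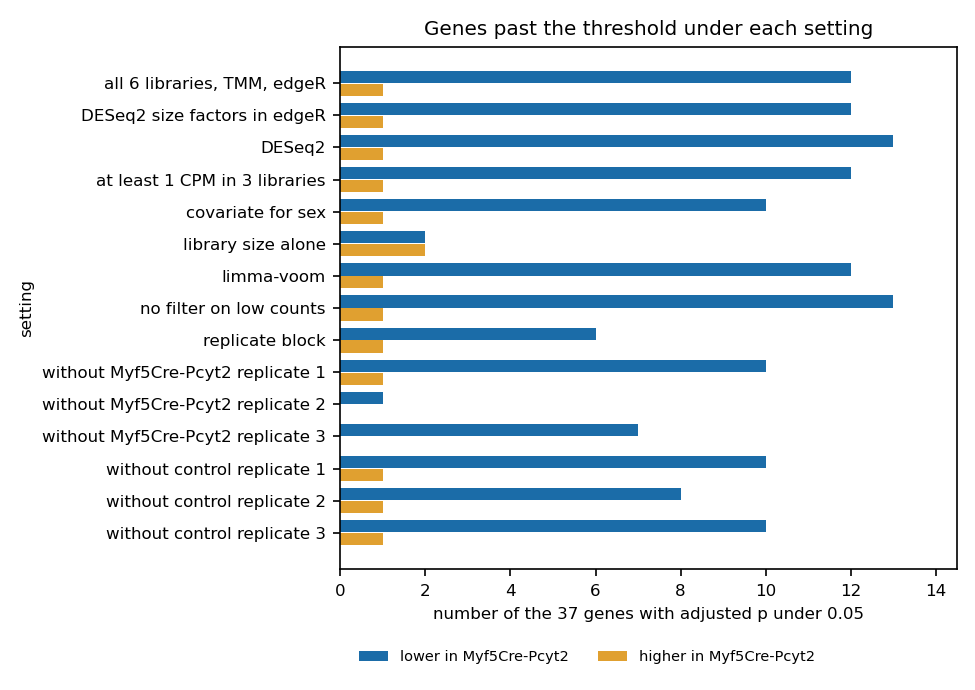
Number of the 37 genes past the threshold, lower and higher in Myf5Cre-Pcyt2, under each setting, from 0. The count of lower genes is 12 with all libraries and falls to 2 with library size alone and to 1 without Myf5Cre-Pcyt2 replicate 2. Of all tested genes 9.59%, 3.39% and 2.85% are lower in these settings.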

How the data were processed

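The data are counts of RNA sequencing reads per Ensembl gene in 6 quadriceps libraries, each made from 1.3 µg of total RNA per the labels. The authors deposited raw counts. The submitters' processing notes name featureCounts (Subread 1.6.2), Bowtie2 (2.3.4.1), Trim Galore (0.5.0) and the build GRCm38/mm10, without saying what each did. Strand setting, annotation release and the treatment of reads with several matches are not given in these sources. GENCODE M21 gave symbols, positions and exon lengths for 54495 of 54532 genes. No count column was left out.

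Fits were run with DESeq2 1.42.0, edgeR 4.0.16 and limma 3.58.1 under R 4.3.3. Genes were filtered with filterByExpr on the group (14715 kept) and scaled by TMM. Groups were compared with the two-sided quasi-likelihood test of edgeR, and p-values were adjusted by Benjamini-Hochberg over all tested genes. A log2 fold change below 0 means lower in Myf5Cre-Pcyt2, and its SE comes from the fit. The members and lists were chosen with earlier results of these data known. By rule, every member is accounted for, and up to 3 genes per direction with the smallest p are named from each related list. A gene that this rule would name is not reported here. On simulated counts of 14464 genes, 50.7%, 87.7% and 98.4% of genes changed 1.5-, 2- and 4-fold were recovered, and 5 of 157 calls were false. The simulation used a single dispersion for all genes and changed 200 genes, as many up as down. It therefore cannot test the calls that depend on the scaling. No libraries looked like copies of each other. Same-numbered libraries did not deviate together (r = -0.111, -0.174 and 0.0182), so no pairing was used. Alternatives were other scalings, filters and tools, sex as a covariate, the replicate number as a block, and each library left out. Chosen after seeing the data were the Cpt1a share over unshared exon bases, and the alternatives for genes of the related lists.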

Additional observations from a re-analysis of the deposited data

How the results depend on the processing

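Of the 13 members past the threshold, 1 (Acad11) passed in all 14 alternatives. Lower members numbered 2 when scaled by library size alone, 6 under the replicate block, and 1 to 10 when each library was left out. Of all tested genes 3.39%, 5.89% and 2.85 to 9.67% were lower in these settings. Higher members numbered 2 with library size alone and 0 to 1 when each library was left out. Of all tested genes 21.9% were higher with library size alone, and 422 to 1337 genes when each library was left out. The median over members, -0.19, turned to 0.02 with library size alone. Over all genes, 2739 called genes became 1731 with the replicate block and 846 to 2785 without each library. Same-numbered libraries share a number and, by Xist and Y-linked counts, their sex, so the block also takes up sex. Of the 6 libraries 1 correlated best with its own number. DESeq2 size factors, limma-voom, DESeq2 and both filters gave 12 or 13 lower members and 1 higher, where 6.67 to 10.6% of all tested genes were lower. Calls of the 13 were lost 49 times in all, 12 of them without Myf5Cre-Pcyt2 replicate 2 and 10 when only library size was used. A further 6 were lost under the replicate block: Acsl4 (0.0587), Crat (0.0634), Acadvl (0.053), Acads (0.0578), Acad9 (0.051) and Eci1 (0.0816). From the related lists, Got2, Acadsb, Esrra, Acot4 and Angptl4 were lost there too. The difference in Cpt1a share kept its direction in every alternative, and its exact test cannot go below 0.1. Why these settings moved the counts was not tested. Standard errors of members were 0.08 to 0.25, and the smallest change called among them had a size of 0.32.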
